A study of Mus musculus with 36 samples.

Results

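Mouse fibroblasts on the way to induced pluripotency received the same length of DOT1L inhibition in 2 different windows, and their polyadenylated RNA was sequenced at day 4. In the early window the inhibitor SGC0946 was given on days 0 to 2 and its solvent DMSO on days 2 to 4. In the mid window the order was reversed, with DMSO on days 0 to 2 and SGC0946 on days 2 to 4. The comparison rested on the 4 libraries whose titles and treatment labels name these windows, 2 for each, out of 36 libraries in the series. The day 4 control (4 days of doxycycline and DMSO, 2 libraries) and the full window (SGC0946 throughout the 4 days, 2 libraries) are given beside them as levels. Together with 2 libraries each of day 2 control cells, day 2 inhibitor cells and uninduced fibroblasts they formed a timecourse of 14 libraries, which was fitted as a whole.

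All cells were fibroblasts of E13.5 embryos. They were homozygous for an inducible cassette at Col1a1 that encodes c-Myc, Sox2, Klf4 and Oct4 (symbol Pou5f1), and heterozygous for the reverse tetracycline transactivator at Rosa26. Doxycycline, which switches the factors on, was present in every day 4 group, so both windows and their control share it. Reprogramming cells were grown on irradiated feeder fibroblasts, whose RNA the counts cannot separate from that of the cells. The dose of SGC0946 was not given in the sources used here. Whether replicate libraries were grown as separate cultures is not stated in the labels, and the p-values then reflect nothing beyond the spread of replicate libraries, which may be technical. In bulk RNA, fewer cells of a kind and less RNA per cell cannot be told apart.

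DOT1L is the enzyme that methylates a lysine in the core of histone H3 across the bodies of transcribed genes. SGC0946 blocks its catalytic site, and the mark is then lost gradually as cells divide and histones turn over. Fibroblasts that reprogram give up mesenchymal features and switch on epithelial genes such as Cdh1 before the pluripotency network, and DOT1L inhibition is known to favour that process.

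Expected counts summed to 41.3 M and 47.9 M in the early libraries and to 32.9 M and 35.8 M in the mid libraries. Levels are given in CPM, counts scaled to a common library size with TMM factors, in the order replicate 1 and replicate 2. Summed levels of cell type markers are the exception, with counts scaled by the library total alone and given from lowest to highest. As a check on the cell type, 23 fibroblast marker genes were all detected, and their summed level was 24285 to 24719 CPM after the early window, 24431 to 24556 CPM after the mid window and 23653 to 23836 CPM in the control. The mid libraries stood apart from the other day 4 libraries in a few RNAs. Lars2, the mitochondrial leucyl-tRNA synthetase, stood at 5817 and 13631 CPM in them against 166 and 166 CPM after the early window and 118 and 165 CPM in the control. It took 0.614% and 1.42% of all counts of the mid libraries. Mtrnr2l, a gene resembling mitochondrial ribosomal RNA whose reads may be shared with near-identical copies, stood at 17.4 and 69.0 CPM against 6.00 and 5.64 CPM. Of 52 tested genes with symbols starting Hist1h or Hist2h (replication-dependent histones), 42 were higher in the mid than in the early libraries, and their summed level was 124 and 204 CPM against 78.2 and 77.6 CPM. In the day 2 and uninduced libraries the histone sum lay between 124 and 174 CPM. Mid replicate 1, at 124 CPM, lay at the lower end of that range, and mid replicate 2, at 204 CPM, lay above it. Mid replicate 2 was the higher for Lars2, Mtrnr2l and the histone sum. The full-window libraries, which also had inhibitor on days 2 to 4, stood at 138 and 163 CPM for Lars2 and 5.37 and 6.24 CPM for Mtrnr2l. Their histone sum was 98.4 and 95.4 CPM. Between the early and mid libraries the share of these RNAs moves with the window, so the 2 cannot be told apart. The part of these RNAs in other differences was not tested. Leaving Lars2 and Mtrnr2l out of the counts gave 3067 called genes in place of 3075. Only these 2 genes were left out, so the count cannot show whether other genes were affected along with them.

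**Figure D1:**
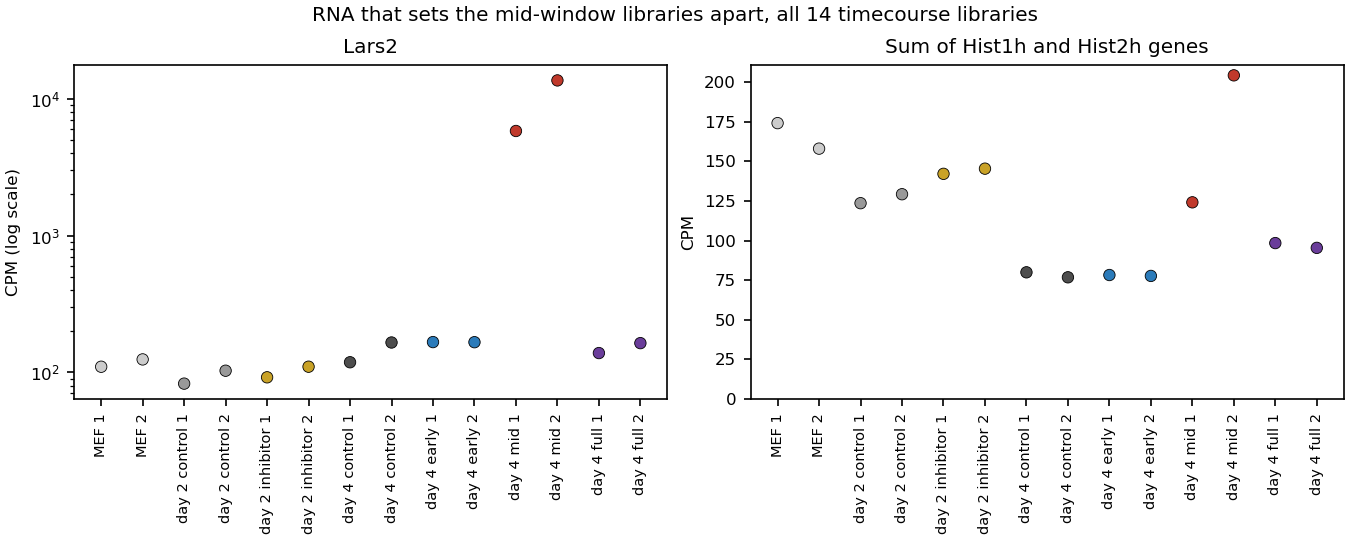
Level of Lars2 (left, CPM on a log axis) and summed level of Hist1h and Hist2h genes (right, CPM) in each of the 14 timecourse libraries; each point is 1 library. Both mid libraries lie far above the other 12 for Lars2, at 5817 and 13631 CPM, and above the other day 4 libraries for the histone sum, at 124 and 204 CPM.

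The comparison asked whether day 4 cells differed between the 2 windows. Mid-window cells were in inhibitor up to day 4, and early-window cells had been without it since day 2. The stage of exposure and the time since exposure therefore cannot be told apart. Relative to the early window, the mid window left 18 of 42 tested epithelial genes higher and 4 lower. Among the higher ones were E-cadherin (Cdh1, 1.72-fold) and the paired simple-epithelial keratins Krt8 and Krt18. All 4 reprogramming factors, which share a cassette, and 12 of 32 Hox genes were lower after the mid window. A gene was called where the Benjamini-Hochberg adjusted p of edgeR's quasi-likelihood test, over all genes tested, was under 0.05. Of 14473 genes, 3075 (21.2%) were called, 1490 (10.3%) higher and 1585 (11.0%) lower after the mid window. The libraries of the groups did not overlap in 3068 of them. Non-overlap was thus nearly universal among called genes and is no separate support for a call, here or below. Its share over all tested genes is not given here. Most differences were small, with a median size of 0.23 on the log2 scale among called genes. Differences of 1.5-fold or more were found for 407 higher and 44 lower genes, and those of 2-fold or more for 181 and 8. Upper-quartile scaling moved the share of higher genes among those called from 48.5% to 58.5% (1741 higher and 1235 lower). Leaving out mid replicate 2 gave 1762 called genes and leaving out early replicate 2 gave 1667.

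Low-level genes made up most of the large increases. Of the 181 genes at 2-fold or more, 141 had a mean under 2 CPM after the mid window and 36 were Hist1h or Hist2h genes, and 143 remained without these histones, Lars2 and Mtrnr2l. The median difference over all genes was 0.35 on the log2 scale where the mean level was under 1 CPM, 0.21 between 1 and 4 CPM, 0.04 between 4 and 16 CPM, -0.01 between 16 and 64 CPM and -0.03 above 64 CPM. Below 4 CPM the background was therefore shifted upwards. Means in these bins and in later splits by level are averages of log2 CPM over the 4 libraries, turned back to CPM. On that scale Cldn4, Epcam, Krt18, Trp63, Sall4, Trim71, Nanog, Fosl1 and Hoxc5, among the genes described below, had a mean under 4 CPM. Leaving out mid replicate 2 gave 107 genes at 2-fold or more higher, and leaving out early replicate 2 gave 117. DESeq2 gave 114 higher, and log2(TPM + 1) with limma gave 41 higher.

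Against the day 4 control, the mid window had 3968 called genes (27.4% of those tested), 2020 higher (14.0%) and 1948 lower. The early window, after 2 days without inhibitor, had 815 (5.63%), 461 higher (3.19%) and 354 lower (2.45%). Upper-quartile scaling gave 2456 higher and 1493 lower genes in the mid comparison. Both use the same control libraries, so their gene lists are not compared here, and each gene's own values stand side by side below. Leaving out any 1 library of the early comparison lowered its count to between 380 and 450, and leaving out mid replicate 2, control replicate 1 or control replicate 2 lowered the higher genes of the mid comparison to 1281, 1336 and 1294.

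Epithelial genes were followed through 3 lists (junction proteins, keratins and desmosomes, and epithelial regulators) of which 42 members were tested. Of these, 18 were called higher after the mid window and 4 lower. The list medians were 0.31, 0.46 and 0.64 on the log2 scale, and 0.14, 0.18 and 0.28 with log2(TPM + 1). Among members with a mean of at least 4 CPM the list medians were 0.07, 0.07 and 0.37. Of the 23 members with a mean of at least 4 CPM, 10 were higher and 4 lower with a median of 0.18, where 9.7% of all genes at that level were higher, 14.1% lower and the median was -0.01. Of the 19 below 4 CPM, 8 were higher with a median of 0.88, where 12.2% of all genes were higher and the median was 0.28. Among the 8 members between 16 and 64 CPM, 4 were higher and 2 lower, with a median of 0.07. The 2 members at 64 CPM or more were lower, as were 24.5% of all genes at that level. The libraries did not overlap in any of the 18, as in nearly all called genes, so this adds nothing to the calls. Of the 18, 10 had a mean of at least 4 CPM over the 4 libraries. In all 18 both full-window libraries were above both early libraries, and in 15 above both mid libraries too. The 18 were chosen through these same early and mid libraries, so this describes levels and is no separate support. The same share over all genes is not given here. Leaving out mid replicate 2 gave 11 called higher, the lowest count of any setting tried, and the count of lower genes was 4 in every setting.

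The 3 promoters shown here, 250 bases before to 50 bases after the start site of RefSeq's GRCm38.p6 annotation, belong to epithelial genes that rose together after the mid window. Capitals mark CACCTG or its reverse complement CAGGTG, the E-box letters bound by the repressors Snai1, Zeb1 and Zeb2, which silence epithelial genes in mesenchymal cells.
Krt8 (chr15:102004293-102004592, minus strand): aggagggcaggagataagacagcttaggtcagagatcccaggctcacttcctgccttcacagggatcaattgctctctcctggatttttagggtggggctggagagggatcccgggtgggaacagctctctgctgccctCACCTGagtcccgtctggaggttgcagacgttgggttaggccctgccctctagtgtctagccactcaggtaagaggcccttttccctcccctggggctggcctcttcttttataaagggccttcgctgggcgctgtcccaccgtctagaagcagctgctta
Krt18 (chr15:102027966-102028265, plus strand): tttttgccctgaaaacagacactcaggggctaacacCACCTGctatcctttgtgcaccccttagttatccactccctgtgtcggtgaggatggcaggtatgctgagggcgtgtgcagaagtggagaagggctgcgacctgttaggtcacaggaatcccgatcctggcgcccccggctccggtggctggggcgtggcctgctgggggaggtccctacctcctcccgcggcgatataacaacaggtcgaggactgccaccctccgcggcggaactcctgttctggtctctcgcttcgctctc
Cldn3 (chr5:134985964-134986263, plus strand): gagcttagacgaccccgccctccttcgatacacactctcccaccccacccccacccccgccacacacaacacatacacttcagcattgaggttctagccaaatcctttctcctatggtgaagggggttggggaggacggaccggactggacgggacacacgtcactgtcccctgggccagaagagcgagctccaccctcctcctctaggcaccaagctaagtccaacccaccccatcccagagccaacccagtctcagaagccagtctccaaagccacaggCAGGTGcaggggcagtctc
The letters start 111 bases before the start site in Krt8 and 214 before it in Krt18, and 31 bases after it in Cldn3. A promoter was at hand for 8 of the 18 genes called higher, and 7 of these 8 hold the letters on either strand. Of all promoters of the same length, 20.2% of 32851 hold them, or 6098 of 27025 when counted by gene. Epithelial genes that fell or were not called were not scored, so the letters cannot be tied to the mid window. The counts describe the letters in these stretches and show no binding.

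Of 14 junction genes tested, 3 rose (Cdh1, Cldn3 and Cldn4) and 1 fell. Cdh1 encodes E-cadherin, the adhesion protein of epithelial adherens junctions. It stood at 8.02 and 7.53 CPM in the control, 11.9 and 12.6 CPM after the early window, 20.0 and 22.1 CPM after the mid window and 28.8 and 27.0 CPM after the full window. The groups did not overlap at any step, and the mid window was 1.72-fold above the early one (log2 0.78 ± 0.08, where ± gives the standard error of the edgeR fit here and below, adjusted p = 9e-10). Over the control, the early window raised Cdh1 by 0.65 ± 0.09 log2 and the mid window by 1.44 ± 0.09 log2. Cldn3, a tight junction claudin, stood at 3.19 and 3.24 CPM in the control, 6.16 and 5.95 CPM after the early window and 9.72 and 9.51 CPM after the mid window (log2 0.67 ± 0.11, adjusted p = 1.21e-05). Its promoter is the third of those printed above. Cldn4 was called at under 1 CPM in all 4 libraries and was not called when any 1 of them was left out. Epcam, a surface protein of epithelial and pluripotent cells, was not called, at 1.22 and 1.54 CPM early and 2.19 and 1.96 CPM mid (log2 0.58 ± 0.23, adjusted p = 0.0699).

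Of 15 keratin and desmosome genes, 8 rose and 3 fell. Krt8 and Krt18 form the intermediate filaments of simple epithelia. Krt8 stood at 3.75 and 3.43 CPM in the control, 3.98 and 4.09 CPM early, 8.10 and 9.00 CPM mid and 16.1 and 17.0 CPM with the full window (mid against early log2 1.08 ± 0.11, adjusted p = 3.99e-10). Krt18 stood at 1.51 and 1.84, 1.92 and 1.84, 4.07 and 3.41 and 8.61 and 9.23 CPM in the same order (log2 0.99 ± 0.16, adjusted p = 1.02e-05). For this pair the early window was not called against the control (log2 0.17 ± 0.12 and 0.17 ± 0.18), while the mid window was, so the keratins whose promoters are printed above differ in this from Cdh1 and Cldn3, which were called in both. Whether the effects differ between genes was not tested. Dsp (desmoplakin), which anchors keratin filaments at desmosomes, rose from 39.0 and 39.4 CPM early to 48.1 and 47.4 CPM mid. Pkp1 (plakophilin) stood at 3.87 and 3.48 CPM early and 5.39 and 6.55 CPM mid (log2 0.71 ± 0.13). The members that fell were Pkp2, from 36.8 and 35.9 to 26.1 and 23.5 CPM, Perp, from 75.6 and 74.1 to 52.1 and 53.9 CPM, and Jup, from 168 and 166 to 146 and 151 CPM. Of the 8 that rose, 4 had a mean under 4 CPM. Leaving out mid replicate 2 gave 4 called higher.

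Epithelial regulators rose in 7 of 13 and fell in none by edgeR or DESeq2, with 1 lower at an unadjusted p under 0.05. Trp63, the transcription factor p63 of stratified epithelia, stood at 2.74 and 2.75 CPM in the control, 2.67 and 2.41 CPM early, 5.88 and 6.58 CPM mid and 6.09 and 5.62 CPM with the full window. The mid and full libraries were above all control and early libraries (mid against early log2 1.30 ± 0.15, adjusted p = 1.09e-08). Spint1, an inhibitor of the epithelial protease matriptase, stood at 6.23 and 6.44, 9.33 and 8.96 and 12.7 and 14.3 CPM in control, early and mid (log2 0.57 ± 0.09). With TPM values and a pseudocount of 0.1 it missed the threshold (adjusted p = 0.0728). Ehf, an epithelial ETS factor, stood at 3.69 and 3.85, 5.79 and 5.04 and 8.45 and 8.49 CPM (log2 0.65 ± 0.12). St14, matriptase itself, was raised over the control by both windows, to 8.23 and 8.88 CPM early and 8.74 and 8.51 CPM mid, and was not called between them (log2 0.01 ± 0.10, adjusted p = 0.959).

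**Figure D2:**
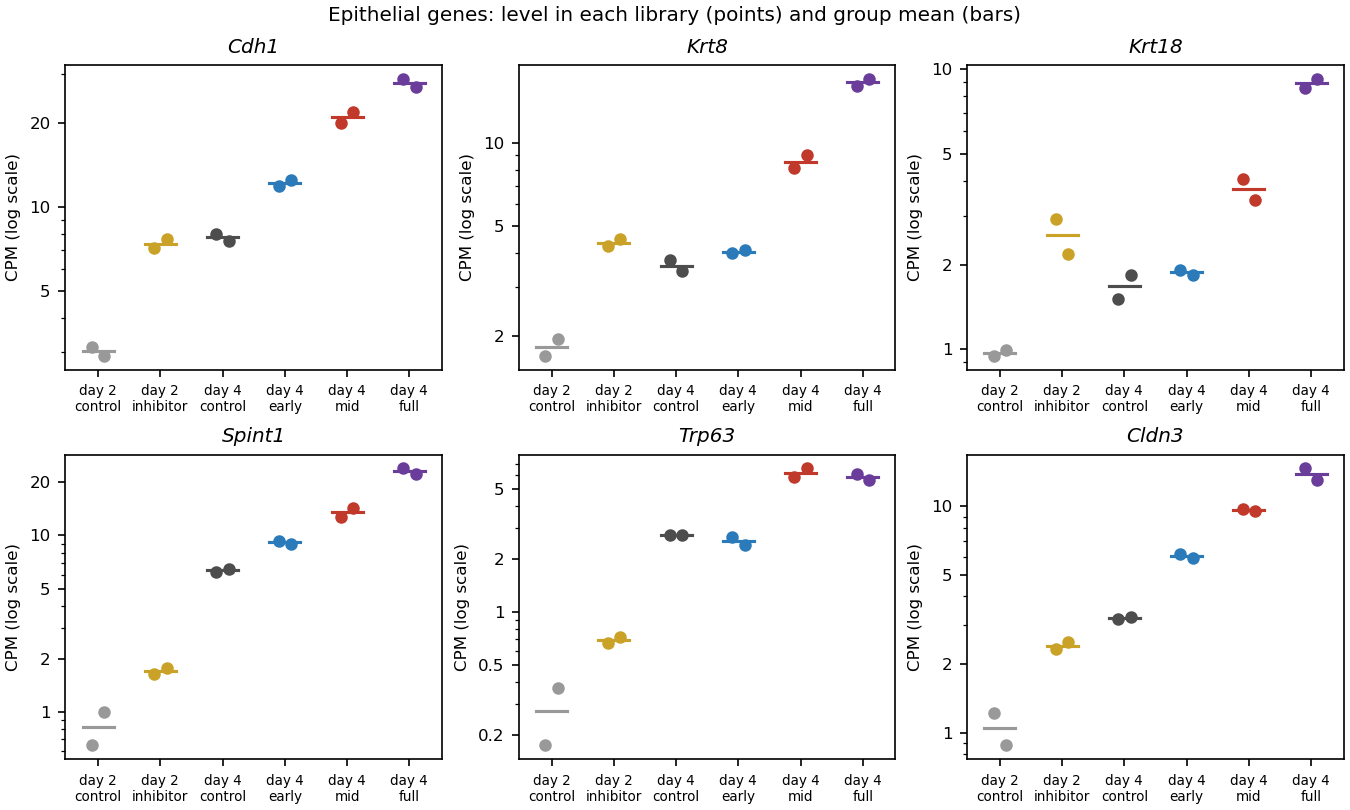
Level of 6 epithelial genes (CPM, log axis) in the day 2 and day 4 groups; points are libraries and bars group means of 2 libraries. In each panel both mid libraries lie above both early libraries, from 12.7 and 14.3 against 9.33 and 8.96 CPM for Spint1, the smallest log2 difference of the 6, to 5.88 and 6.58 against 2.67 and 2.41 CPM for Trp63.

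Of 7 tested genes of the epithelial basement membrane and its integrin receptors, 2 rose and 2 fell, and 1 fell without early replicate 2. The subunits of alpha-6 beta-4 integrin, which anchors epithelial cells to that membrane, went apart. Itga6 rose from 73.2 and 79.5 CPM early to 95.7 and 91.9 CPM mid, and Itgb4 fell from 162 and 162 to 112 and 110.2 CPM (log2 -0.55 ± 0.04).

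Mesenchymal transcription factors, which hold fibroblast identity and repress epithelial genes, fell in 5 of 18 and rose in 2, with a median of 0.04 (between -0.05 and 0.11 over the settings tried). The 3 members at 64 CPM or more fell, as did 24.5% of all genes at that level. Over all genes tested 10.3% were higher and 11.0% lower, and list counts here and below are to be read beside these shares. Zeb1 fell from 78.9 and 82.7 CPM early to 70.4 and 71.2 CPM mid (log2 -0.19 ± 0.04). Its relative Zeb2 rose from 29.4 and 33.8 to 39.4 and 40.7 CPM (log2 0.34 ± 0.06), and the libraries did not overlap in either. Prrx1, a factor of limb mesenchyme, fell from 489.8 and 506 to 438 and 424 CPM. Snai1 fell from 15.4 and 14.1 to 12.6 and 12.4 CPM. Fibroblast matrix genes rose in 8 of 23 and fell in 1, by at most 0.59 log2. Eln (elastin) stood at 98.0 and 95.5 CPM in the control, 99.3 and 88.4 CPM early, 139 and 143 CPM mid and 93.6 and 93.5 CPM with the full window, so that the mid libraries alone were high. Postn (periostin) stood at 107 and 108 CPM early and 143 and 137 CPM mid, and Vim (vimentin) fell from 6035 and 6038 to 5338 and 5352 CPM. The count of rising matrix genes was 4 without mid replicate 1, 3 without mid replicate 2 and 3 without early replicate 2, and 5 with DESeq2, with TPM values or without the low-count filter. Contractile genes of smooth muscle type rose in 3 of 11 and fell in 2, by at most 0.19 in size on the log2 scale.

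Genes driven by TGF-beta and BMP rose in 6 of 19 and fell in 1. The BMP targets Id1, Id3 and Id4, inhibitors of differentiation factors, rose by 0.34, 0.31 and 0.42 log2, and Id2 fell by 0.28 on the log2 scale. Tgfbi, a matrix protein induced by TGF-beta, stood at 334 and 329.6 CPM in the control, 408 and 408 CPM early and 474 and 479 CPM mid. It rose in steps without overlap between groups. The YAP targets moved both ways, with 2 of 8 higher (Cyr61 and Ctgf) and 4 lower, a count that was 2 without mid replicate 2 and 2 with TPM values.

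The 4 inducible factors fell together after the mid window. Pou5f1 stood at 179 and 188 CPM in the control, 193 and 182 CPM early, 154 and 149 CPM mid and 150.3 and 143 CPM with the full window. Sox2 stood at 168 and 165 CPM early and 132 and 141 CPM mid, Klf4 at 295 and 302 and 240.2 and 247 CPM, and Myc at 407 and 408 and 346 and 348 CPM. Mid and early libraries did not overlap for any of them. The differences were -0.31 ± 0.04, -0.28 ± 0.04, -0.29 ± 0.04 and -0.23 ± 0.03 log2, with adjusted p of 2.65e-08, 7.43e-07, 1.95e-07 and 1.7e-06, and all 4 were called in every setting tried. The early window was not called against the control for any of the 4, with differences of 0.03, 0.08, 0.09 and 0.01 log2. The counts join reads of the inducible copy and the gene's own locus, which cannot be told apart. The 4 factors are encoded by the same cassette, so their differences are not independent of one another. All 4 had a mean of at least 64 CPM, where 24.5% of all genes were called lower.

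Pluripotency genes were mostly near the limit of detection at day 4, and 10 of 21 were tested. None rose and 4 fell. Fgf4, a growth factor gene bound by Oct4 and Sox2 in pluripotent cells, stood at 15.9 and 15.3 CPM in the control, 16.7 and 17.0 CPM early, 8.30 and 9.75 CPM mid and 11.9 and 11.7 CPM with the full window (mid against early log2 -0.90 ± 0.09, adjusted p = 1.91e-10). L1td1, an RNA-binding protein of pluripotent cells, stood at 99.7 and 96.3, 125 and 129, 97.7 and 92.5 and 113 and 115 CPM in the same order. It was called higher than control after the early window (log2 0.37 ± 0.04) and was not called after the mid window (log2 -0.04 ± 0.04). Sall4, a pluripotency transcription factor, stood at 0.302 and 0.187 CPM in the control, 0.984 and 1.64 CPM early, 0.605 and 0.564 CPM mid and 3.00 and 2.30 CPM with the full window. Its early libraries were above both mid libraries (log2 -1.18 ± 0.32, adjusted p = 0.00711) at levels where the median gene went the other way. Trim71 was the remaining member that fell, from 4.64 and 4.09 to 2.54 and 3.06 CPM, and missed the threshold without mid replicate 1 (adjusted p = 0.0522). Nanog, the homeobox factor of the pluripotency network, was not called between windows, at 0.820 and 0.606 CPM in the control, 1.43 and 1.5 CPM early, 1.70 and 2.01 CPM mid and 3.12 and 3.67 CPM with the full window (log2 0.35 ± 0.22, adjusted p = 0.294). Each window alone was called higher than control for Nanog, by 1.03 ± 0.25 and 1.37 ± 0.25 log2.

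The FGF pathway signals through ERK, whose feedback genes include the ETS factors Etv4 and Etv5, the phosphatase Dusp6 and the Sprouty inhibitors. Of 15 genes of the pathway, 7 fell and 2 rose. Etv5 stood at 89.5 and 94.2 CPM in the control, 97.5 and 102 CPM early and 69.7 and 71.1 CPM mid (log2 -0.51 ± 0.04, adjusted p = 1.14e-12). Etv4 fell from 16.2 and 17.6 CPM early to 11.9 and 11.8 CPM mid, Dusp6 from 49.7 and 49.9 to 37.3 and 39.1 CPM, Spry2 from 42.7 and 43.4 to 35.9 and 37.2 CPM and Spry4 from 60.9 and 60.2 to 51.6 and 51.4 CPM. The libraries of the windows did not overlap in any of these 5 genes. The receptor Fgfr1 fell by 0.12 on the log2 scale, while Fgfr3 and the ligand Fgf7 rose by 0.55 and 0.20 log2. Neither of these last was called without mid replicate 1.

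Hox genes record position along the body axis, and they are the classic targets of DOT1L in leukemias with MLL fusions. Of 32 tested, 12 fell and none rose, with a median of -0.22 log2, and none rose at an unadjusted p under 0.05 or with DESeq2. Of the 22 with a mean of at least 4 CPM, 11 fell, where 14.1% of all genes at that level were lower and 9.7% higher. Hoxa11 stood at 21.6 and 22.8 CPM in the control, 20.9 and 21.7 CPM early, 14.1 and 14.3 CPM mid and 12.8 and 12.4 CPM with the full window (mid against early log2 -0.58 ± 0.08, adjusted p = 1.45e-07). Hoxa10 stood at 54.7 and 58.1, 57.5 and 58.1, 42.3 and 40.5 and 36.4 and 38.9 CPM, and Hoxc8 at 33.7 and 31.8, 31.1 and 33.8, 24.2 and 21.6 and 20.4 and 21.5 CPM. In these 3 genes the early libraries lay among or beside the controls and the mid libraries lay below both. All 6 tested members of the C cluster fell, as did 3 of 11 in the A cluster, 3 of 8 in the B cluster and 0 of 7 in the D cluster. Whether the clusters differ was not tested. Of the 12 that fell, 11 were also called lower than control after the mid window, and Hoxc6 alone after the early window. All 12 were lower in both full-window libraries than in both early libraries. These counts reuse the early and mid libraries through which the 12 were chosen, so they describe levels and are no separate support. The count was 8 without mid replicate 2, 8 without early replicate 1 and 8 without early replicate 2. Meis2, a partner of Hox proteins, fell from 43.8 and 43.5 CPM early to 37.7 and 37.1 CPM mid, the only call among 6 Meis and Pbx genes. Dot1l itself, at 81.6 and 81.3 CPM early and 82.6 and 83.4 CPM mid, was not called (log2 0.03 ± 0.04, adjusted p = 0.706). Among 15 genes of its complex and of elongation factors, Mllt3 fell and Cdk9 rose, by 0.18 and 0.13 in size on the log2 scale, and neither was called without mid replicate 2 or without early replicate 2.

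**Figure D3:**
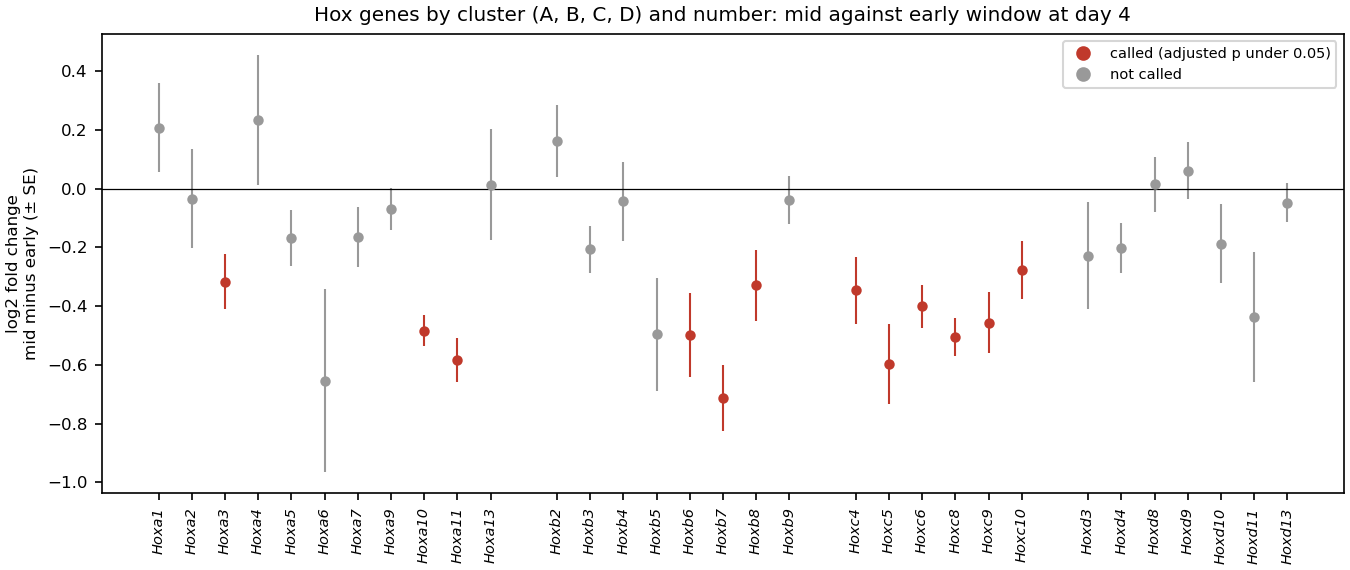
Difference between mid and early window (log2 fold change, points, with bars of 1 standard error from the edgeR fit) for the 32 tested Hox genes in order of cluster and number. Red points were called. All 12 called genes lie below 0, including all 6 tested genes of the C cluster, from -0.28 for Hoxc10 to -0.60 for Hoxc5.

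Among all tested genes with a mean of at least 64 CPM, 24.5% were called lower and 8.43% higher after the mid window, and the mostly abundant genes of growth and metabolism are read beside that. In 6 such lists (sterol, amino acid stress, glycolysis, S phase, mitosis and p53 genes), grouped after their values were seen, 61 members lay at that level, of which 30 were lower (49.2%) and 4 higher (6.56%). Sterol synthesis genes fell in 8 of 17 and rose in none, by at most 0.26 on the log2 scale. Insig1, a sensor protein of the pathway, stood at 121 and 124 CPM in the control, 112 and 114 CPM early, 98.2 and 90.8 CPM mid and 121 and 127 CPM with the full window. The mid libraries were the lowest of the 4 day 4 groups. The sterol count was 5 without mid replicate 2. Genes of the amino acid stress and unfolded protein responses fell in 6 of 16 and 1 rose. Psat1, an enzyme of serine synthesis, fell from 216 and 222 CPM early to 182 and 177 CPM mid and Phgdh, the first enzyme of that pathway, from 157 and 149.5 to 129 and 134 CPM. Glycolysis genes fell in 5 of 13, led by the phosphofructokinase gene Pfkp from 122 and 118 to 93.9 and 89.8 CPM, and rose in 2. Glucose transporter Slc2a1 was 1 of the 2, from 86.4 and 86.5 to 97.0 and 103 CPM.

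Of the S phase genes, 4 of 17 fell and none rose. Rrm1 and Rrm2, the subunits of ribonucleotide reductase, went from 538 and 553 CPM early to 408 and 389 CPM mid and from 114 and 122 to 98.7 and 95.3 CPM. The replication helicase gene Mcm6 went from 202 and 204 to 174 and 173 CPM. Mitosis genes fell in 6 of 17, by at most 0.21 on the log2 scale, and their count lay between 1 (without early replicate 2) and 10 (with the gene length trend removed) over the settings tried. Among p53 targets and inhibitors of cyclin-dependent kinases, 6 of 15 fell and 1 rose. Mdm2, the ubiquitin ligase of p53, fell from 222 and 232 to 201 and 199 CPM and Cdkn1b (p27) from 50.7 and 51.4 to 41.0 and 43.2 CPM. The histone genes named above are among the RNAs that set the mid libraries apart. Their sum was uneven between the mid libraries (124 and 204 CPM) and stood at 98.4 and 95.4 CPM with the full window. It was higher after the mid than after the early window, while these S phase genes were lower. Whether the 2 changes are linked was not tested.

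In the IGF system, 6 of 13 genes fell and 2 rose. Igfbp5, a binding protein for insulin-like growth factors, stood at 68.4 and 69.0 CPM in the control, 56.6 and 58.0 CPM early, 39.8 and 40.3 CPM mid and 17.0 and 17.6 CPM with the full window, with no overlap between the 4 groups. The RNA-binding proteins Igf2bp1, Igf2bp2 and Igf2bp3 fell by 0.28, 0.27 and 0.20 on the log2 scale. Igfbp4 rose from 105 and 104 to 136 and 147 CPM and Igfbp2 from 12.3 and 12.3 to 18.4 and 19.8 CPM. The count of 6 was 4 without either mid library or without early replicate 2. Imprinted genes, expressed from 1 parental allele, rose in 4 of 16 and fell in 2. Peg10 stood at 29.2 and 29.4, 41.4 and 43.4 and 57.9 and 57.8 CPM in control, early and mid, while Grb10, a growth inhibitor, fell from 1954 and 2051 to 1677 and 1665 CPM. Dnmt1, the maintenance DNA methyltransferase, fell by 0.13 on the log2 scale, and among 7 enzymes of DNA methylation 2 rose and 2 fell. None of them rose without mid replicate 2 or without early replicate 1.

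Inflammatory and chemokine genes rose in 7 of 16 and fell in 2. Ccl2, a monocyte attractant, stood at 55.9 and 57.5 CPM in the control, 66.6 and 66.9 CPM early and 94.6 and 105 CPM mid (log2 0.58 ± 0.05, adjusted p = 3.04e-11). Cxcl5 went from 30.4 and 27.1 CPM in the control to 23.3 and 21.8 CPM early and 28.0 and 30.1 CPM mid, with the full-window libraries at 23.7 and 23.6 CPM, so that the early and full libraries were the low ones. Interferon response genes rose in 6 of 16 and fell in none, with 4 of the 6 under 4 CPM, and in 3 without early replicate 2. Under 4 CPM, 12.2% of all genes were higher and 0.874% lower. Irf1, an interferon-induced transcription factor at a higher level, stood at 27.3 and 28.3 CPM early and 36.6 and 35.2 CPM mid. Immediate early genes, the first to respond to growth factors and stress, rose in 6 of 13, Egr1 from 129 and 129 to 163 and 166 CPM. Fosl1 fell, from 1.48 and 1.64 to 0.548 and 1.07 CPM, and was not called without mid replicate 1, early replicate 1 or early replicate 2. Wnt genes rose in 5 of 18 and fell in 2. The secreted Wnt antagonist Sfrp1 rose from 485 and 499 to 594 and 599 CPM. The counts of rising Wnt genes were 3 without early replicate 1 and 3 without early replicate 2. Of 11 Notch genes 2 rose (1 to 3 over the settings) and 2 fell. These few calls cannot be set apart from the shares over all genes (10.3% higher and 11.0% lower). The ligand Dll1 stood at 9.71 and 9.51 CPM in the control, 9.40 and 8.45 CPM early, 14.3 and 13.3 CPM mid and 9.18 and 9.34 CPM with the full window, with the mid libraries alone high.

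**Figure D4:**
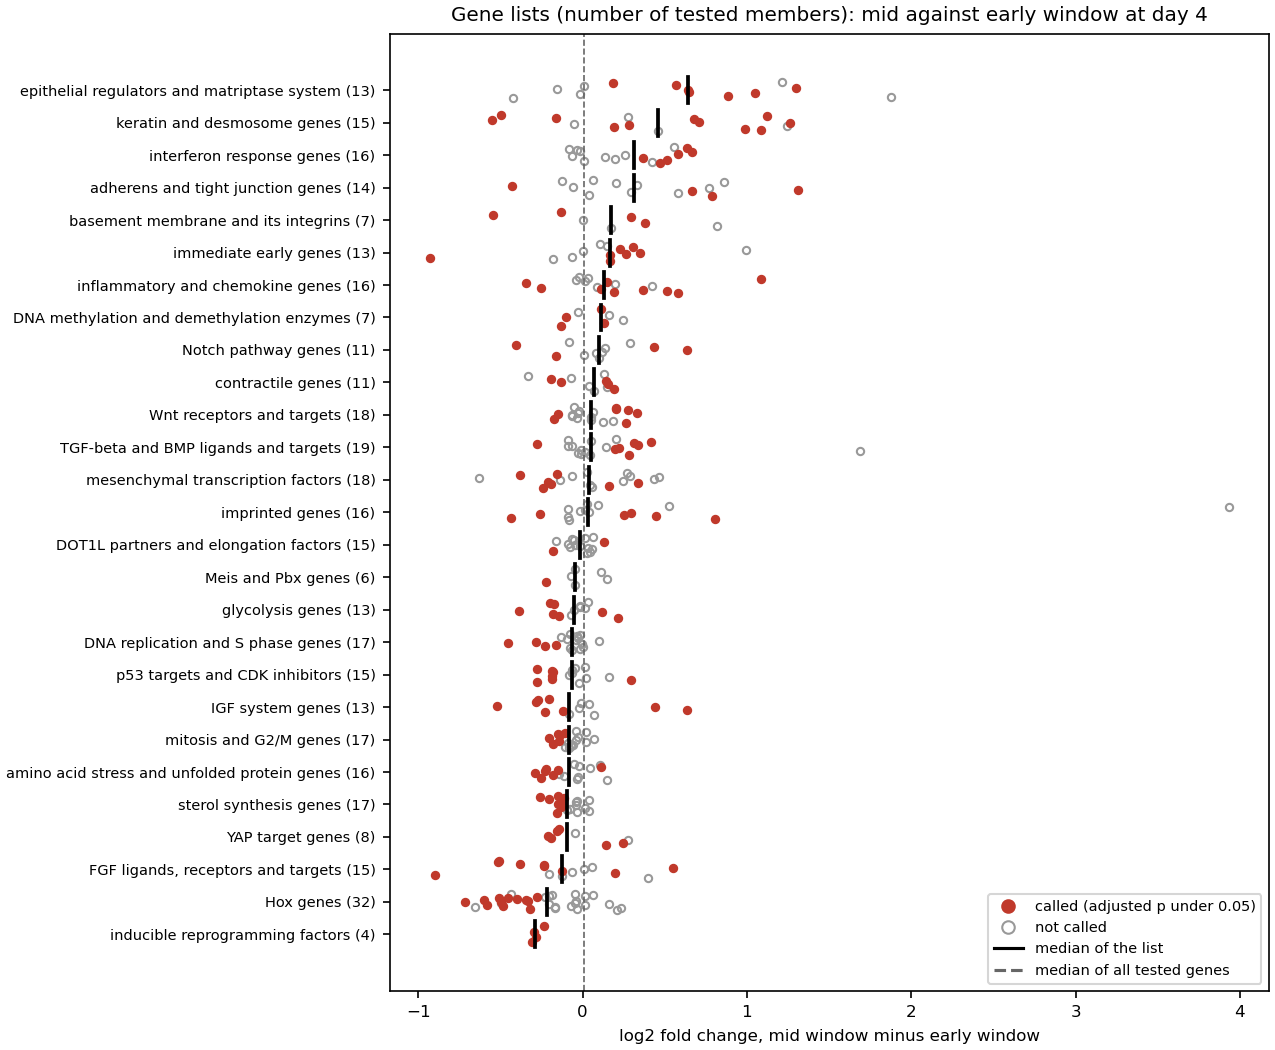
Difference between mid and early window (log2 fold change, horizontal axis) for the tested members of 27 pathway lists, 1 row for each list with its number of tested genes; red points were called, open points were not, black bars are list medians and the dashed line is the median over all genes (0.01). The highest medians are those of the epithelial regulators (0.64) and keratins (0.46) and the lowest those of the reprogramming factors (-0.29) and Hox genes (-0.22). Among members with a mean of at least 4 CPM the medians were 0.37 for the epithelial regulators and 0.07 for the keratins. Below 4 CPM the median over all genes was 0.28.

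Markers of other cell types were read to see what else moved with the window. Of 12 macrophage and leukocyte genes, 4 rose and none fell, and their summed level was 222.0 to 227.1 CPM early, 264.1 to 264.4 CPM mid and 241 to 247 CPM in the control. None of the 12 was at 0. Lyz2 (lysozyme) stood at 63.2 and 61.5 CPM in the control, 46.1 and 47.3 CPM early and 64.1 and 67.5 CPM mid, and the complement gene C1qa went from 23.2 and 21.2 CPM early to 32.1 and 28.4 CPM mid. The count was 2 without mid replicate 2 and 2 with DESeq2. The summed level moves with the inflammatory genes above, and its part in them was not tested. No member was called among 6 endothelial, 8 skeletal muscle, 9 neural, 9 epidermal and 5 trophoblast-associated genes tested with edgeR, nor with DESeq2. Of these 37 genes, 1 was higher and 3 were lower at an unadjusted p under 0.05. The epidermal genes, at 18.2 to 18.8 CPM early and 17.0 to 18.0 CPM mid in sum, with Krt6a and Krt16 at 0 in all 4 libraries, are among these uncalled genes.

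Where the mean log2 CPM over the 4 libraries was 3 or more, the largest increases after Lars2 and Mtrnr2l were in genes of several kinds. Col28a1, a collagen, stood at 7.74 and 7.39 CPM in the control, 8.44 and 7.71 CPM early, 18.2 and 17.4 CPM mid and 23.8 and 21.9 CPM with the full window (mid against early log2 1.14 ± 0.09). Pappa2, a protease that releases insulin-like growth factors from their binding proteins, stood at 4.27 and 4.31, 7.27 and 7.32, 16.1 and 15.4 and 13.9 and 14.4 CPM (log2 1.11 ± 0.09). Ret, the GDNF receptor kinase, stood at 13.9 and 13.3, 18.1 and 18.1, 34.7 and 34.5 and 38.8 and 41.8 CPM (log2 0.94 ± 0.07, adjusted p = 4.76e-13). For these 3 genes the mid libraries lay far above the early ones, on the side of the full window. Foxj1, the regulator of motile cilia, stood at 5.81 and 6.13 CPM early and 11.5 and 11.2 CPM mid, Sostdc1, a BMP antagonist, at 14.2 and 13.4 and 23.4 and 26.3 CPM, and the peptidase gene Dpp4 at 13.7 and 13.9 and 23.4 and 22.9 CPM.

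The largest decreases included transporters, enzymes and regulators. Cobl, an actin nucleator, stood at 141 and 146 CPM in the control, 146 and 152 CPM early, 91.0 and 89.0 CPM mid and 115 and 117 CPM with the full window (mid against early log2 -0.73 ± 0.04). Tead4, a partner of YAP, stood at 18.0 and 18.0, 19.1 and 16.4, 10.9 and 11.7 and 12.3 and 13.0 CPM, and Prrg4 at 30.3 and 29.3, 29.1 and 29.1, 18.3 and 17.8 and 24.3 and 27.2 CPM. In all 3 the early libraries were level with the control and the mid libraries were the lowest. Sp9, a zinc finger factor of limb buds, stood at 7.74 and 6.76 CPM in the control, 12.7 and 11.8 CPM early and 6.92 and 7.25 CPM mid, with 10.9 and 10.4 CPM after the full window, so that the early and full libraries were above both control and mid. Gm2058 fell as well, from 26.3 and 33.1 to 15.7 and 19.9 CPM, with an uncertain level because reads may be shared with a near-identical copy. It was not called when the 4 compared libraries were fitted alone (adjusted p = 0.122).

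A set of 36 genes lay on opposite sides of the day 4 control, called higher in one window, lower in the other and different between windows. The call between windows largely follows from the opposite calls, which use the same libraries, and is no separate support. Of these, 27 were higher than control after the early window and lower after the mid window, and 9 the reverse. The differences from the control were less stable than those between windows, and between 9 and 36 of the 36 kept all 3 calls over the settings tried, with 9 for log2(TPM + 0.1), 10 for log2(TPM + 1), 17 and 18 without early replicates 1 and 2, and 10 without either control library. Aldh3a1, an aldehyde dehydrogenase, stood at 294 and 284 CPM in the control, 354 and 357 CPM early and 184 and 183 CPM mid. With the full window it stood at 256 and 242 CPM, between control and mid. Slc7a3, a transporter of cationic amino acids, stood at 26.8 and 27.8 CPM in the control, 40.6 and 38.9 CPM early, 19.6 and 20.3 CPM mid and 30.4 and 33.5 CPM with the full window. Avil, an actin-binding protein of the villin family, stood at 13.6 and 13.9, 21.5 and 21.9, 11.7 and 11.4 and 17.2 and 17.9 CPM in that order. For Slc7a3 and Avil the full window was above the control, on the side of the early window. Dlk1, an imprinted gene for a transmembrane protein resembling Notch ligands, went the other way, at 16.6 and 16.0 CPM in the control, 13.2 and 13.0 CPM early, 21.7 and 24.1 CPM mid and 19.7 and 17.0 CPM with the full window. At day 2 it had stood at 22.1 and 20.3 CPM without and 30.3 and 30.2 CPM with inhibitor. For Aldh3a1 the day 2 levels were 188 and 186 CPM without and 194 and 190.3 CPM with inhibitor.

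**Figure D5:**
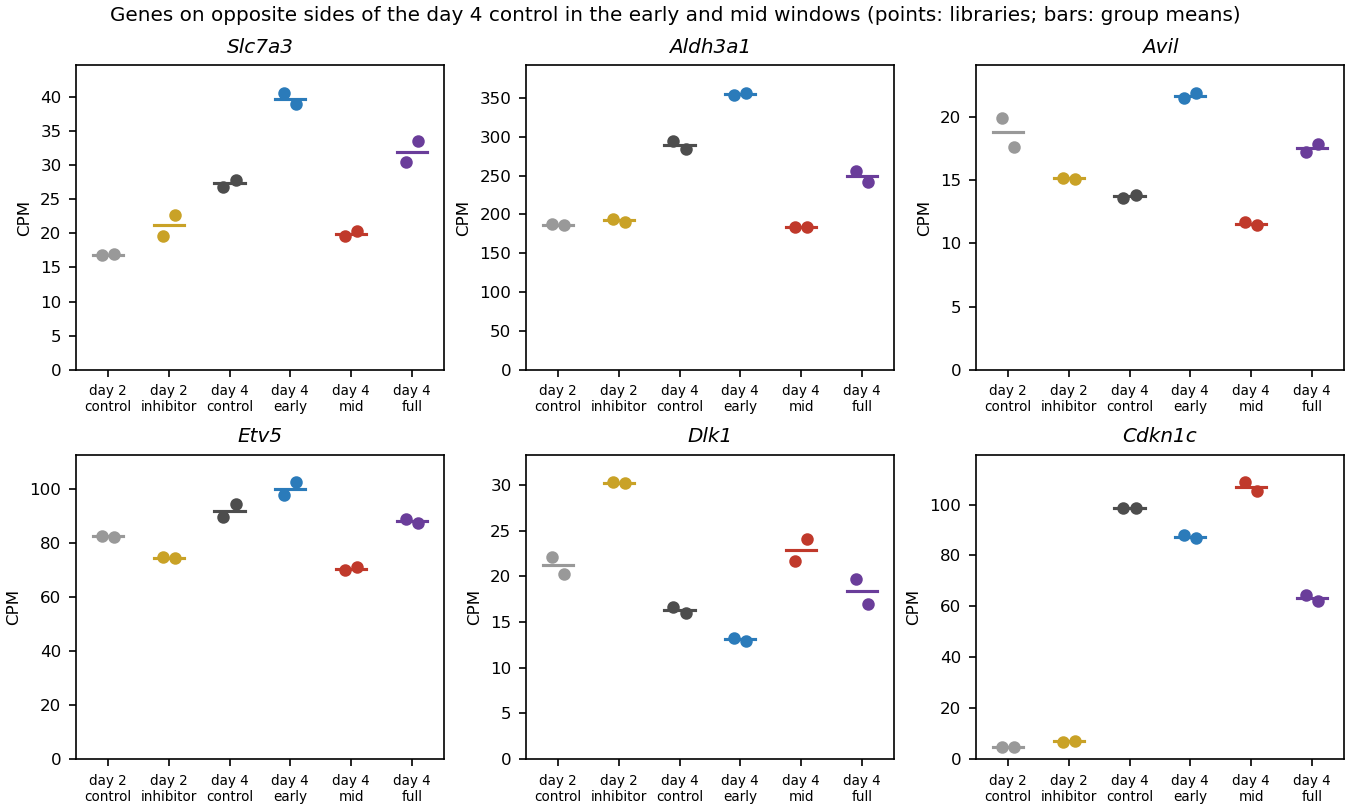
Level of 6 genes (CPM, axes starting at 0) in the day 2 and day 4 groups; points are libraries and bars group means of 2 libraries. Slc7a3, Aldh3a1, Avil and Etv5 lie above the day 4 control in the early window and below it in the mid window, and Dlk1 and Cdkn1c the reverse.

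Over 10063 genes whose mean log2 CPM was 3 or more, the mid-minus-early difference correlated with the full-minus-control difference at Pearson's r = 0.45 and Spearman's rho = 0.40. Over 9870 genes it correlated with the day 2 inhibitor-minus-control difference at r = 0.41 and rho = 0.43. These pairs share no library, but the genes are not independent replicates, and the values are a description of these libraries.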

How the data were processed

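The members and gene lists were chosen with earlier results of these data known. The authors' tools were Trimmomatic, Bowtie and RSEM (1.2.4), with mm9 and hg18 as builds, per the submitters' processing notes. The deposited values used here were RSEM's expected counts per gene, not normalized, which share out reads that map to several genes, and the deposited TPM values, scaled for length within each library. Human 293T RNA (20 ng per library, per the labels) was not analysed here, so each change is a change in a gene's share of its library.

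Rounded expected counts entered edgeR's quasi-likelihood test (version 4.0.16, R 4.3.3, with TMM scaling, robust fits, filterByExpr with minimum count 10 and minimum total 15) on 14 libraries in 7 groups taken from titles and treatments. This left 7 residual degrees of freedom, 14473 genes tested and 5852 filtered out. The script was tested on simulated data. The 35 lists held 502 different genes, 494 of them in the files. Named were the 10 largest increases and decreases among called genes whose mean log2 CPM was 3 or more and whose libraries did not overlap. For each list, the 3 called members of lowest p were added, as were Nanog, Dot1l, Cdh1 and the 4 factors. Further list members were chosen after their values were seen, and some genes the rule names are not reported here. Alternatives used DESeq2 1.42.0, limma 3.58.1 on log2(TPM + 1) or log2(TPM + 0.1), other scalings, filters and library sets. Replicate numbers did not pair libraries. Symbols are those of the files (Cyr61, Ctgf, Pkm2 and Tcfap2c are older forms).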

Additional observations from a re-analysis of the deposited data

Results flagged for a closer look

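Among the named genes, 10 moved in opposite directions from the shared day 4 control in the 2 windows, and the difference between the windows was called by edgeR's quasi-likelihood test. That call largely follows from the opposite calls, which use the same libraries, and is no separate support in any setting. The signed differences, mid minus early on the log2 scale, were -0.99 for Slc7a3, -0.95 for Aldh3a1, -0.91 for Avil, -0.64 for Alpl (alkaline phosphatase), -0.51 for Etv5, -0.50 for Perp, -0.45 for Rrm1, -0.39 for Pfkp, 0.29 for Cdkn1c (the inhibitor p57) and 0.81 for Dlk1. Alpl stood at 20.6 and 20.8 CPM in the control, 26.2 and 25.1 CPM early, 16.7 and 16.3 CPM mid and 15.5 and 14.3 CPM with the full window. Cdkn1c stood at 98.4 and 98.7 CPM in the control, 87.9 and 86.7 CPM early, 109 and 105 CPM mid and 64.5 and 62.2 CPM with the full window, where it was the lowest of the day 4 groups. Its difference from the control was -0.18 ± 0.04 log2 after the early window and 0.12 ± 0.04 log2 after the mid window. All 10 kept their call between the windows in every setting tried. Calls against the control did not hold as well, and between 3 and 10 of the 10 kept both of these as well, with 3 without either control library. Etv5, Perp and Pfkp lost the early-against-control call in 9, 7 and 6 settings, Cdkn1c lost the mid-against-control call in 9, and Slc7a3 lost neither in any of the 17.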

How the results depend on the processing

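No gene called both as reported and under an alternative had opposite signs. Of all genes called between the windows, 2 changed sign without mid replicate 2 and 6 with a gene length trend removed, and for mid against control 2 and 21 did so. Of 106 named genes, 94 kept their side of the threshold in all alternatives other than those added after seeing the data. Those lost in at least 1 were Uhrf1, C1qb, Dnmt3a, Notch2, Spint1, Top2a, Mtrnr2l, Gm2058, Trim71, Cdk9, Mllt3 and Plk1. Genes called between mid and early (3075) numbered 1667 to 2385 with 1 library left out (728 to 1073 higher, 939 to 1312 lower), and DESeq2 gave 946 higher. For mid against control, leaving out a library gave 2647 to 3159, with 1281 to 1544 higher and 1362 to 1615 lower. For early against control (815), leaving out a library gave 380 to 450, with 232 to 263 higher and 141 to 189 lower. That count was 476 with log2(TPM + 1) (243 higher, 233 lower), 369 with log2(TPM + 0.1) (176 higher, 193 lower) and 1544 with only the compared groups fitted (804 higher, 740 lower). With 1 library left out, the remaining library of its group is assumed to vary like the other groups. The cause of these shifts was not tested beyond the smaller number of samples. Removing a trend with gene length, added after seeing the data, gave 3286 called genes between the windows.

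Replicate numbers did not pair libraries. Correlations of the deviations of same-numbered libraries ran from -0.22 to 0.28, and that between early and mid was -0.15. The replicate block gave 3078 genes between the windows, 3976 for mid and 843 for early against control. A crossed pairing, added after seeing the data, gave 3256. Counting error limits precision for the members under 4 CPM.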
